A study of Mus musculus with 11 samples.

Results

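Transcripts of 27 genes of sterol synthesis and its control were examined in mouse macrophages given a microRNA-150 (miR-150) mimic, out of 31936 genes in the deposited expression table. The genes were found by symbol, taking the first entry for each gene identifier. They comprise 9 genes of acetyl-CoA condensation, the mevalonate pathway and prenyl diphosphate synthesis (Acat1, Acat2, Hmgcs1, Mvk, Pmvk, Mvd, Idi1, Fdps and Ggps1) and 11 of the route from squalene to cholesterol (Fdft1, Sqle, Lss, Cyp51, Tm7sf2, Msmo1, Nsdhl, Hsd17b7, Ebp, Sc5d and Dhcr7). The remaining 7 are Srebf1, Srebf2, Scap, Insig1 and Insig2, which control the pathway, the sterol carrier gene Stard4, and Ch25h, whose enzyme makes an oxysterol from cholesterol.

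The cells were thioglycollate-elicited peritoneal macrophages of female mice, that is, inflammatory macrophages recruited to the abdominal cavity by an irritant. The negative control group had 5 libraries (replicates 1, 2, 3, 4 and 6) and the group given microRNA-150 had 6 (replicates 1 to 6). Strain, age, dose and time were not given in the labels. Whether each library came from its own animal or culture was not stated either, and every p-value therefore reflects variation between libraries, which may be technical. The mimic supplies miR-150 from outside the cell, and the mature microRNA is not counted by these libraries.

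Animal cells build cholesterol from acetyl-CoA through mevalonate, isoprenoid diphosphates, squalene and lanosterol. When sterols in the endoplasmic reticulum are low, SCAP carries the SREBP transcription factors to the Golgi, where they are cleaved and released to the nucleus to switch on these genes. When sterols are plentiful, INSIG proteins hold SCAP and SREBP in the endoplasmic reticulum. In macrophages the oxysterol made by the CH25H enzyme strengthens this retention, and Ch25h is a known interferon-inducible gene.

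Between 18538509 and 25473814 reads per library were assigned to genes. All 8 macrophage markers were tested, and together they summed to 17777 to 20592 CPM (the reads of a gene scaled by its library's total) in controls and 15933 to 20299 with the mimic, with 2 higher and 2 lower. Eosinophil markers summed to 33.4 to 35.6 CPM in controls and 27 to 28.7 with the mimic, and fibroblast markers to 25.6 to 38.6 and 19.5 to 34.5. Neutrophil markers summed to 12.7 to 16.5 and 7.77 to 15 CPM. The 1 tested marker of the eosinophil list and the 1 of the neutrophil list were lower. The B cell, T cell, mast cell, dendritic and mesothelial lists each stayed below 4 CPM. No marker was without reads in every library. Their part in the results was not tested. The slope of expression on transcript length ran from -0.016 to 0.010 log2 units per doubling in controls, and was highest in mimic replicates 3 (0.092), 4 (0.123) and 6 (0.106). Mimic replicates 1 (-0.029), 2 (0.051) and 5 (0.032) also lay outside the control range. Leaving out replicates 3, 4 and 6 therefore does not make the groups alike in this slope. Mimic replicate 1 differed most from the other libraries of its group, with an SD over genes of 0.304 log2 units, against 0.210 to 0.257 elsewhere. Results are therefore given with and without mimic replicates 3, 4 and 6 together where calls or counts differ.

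Of the sterol genes that passed the test, most were lower with the mimic. Of 26 members with enough reads to test, 7 were lower with the mimic (Mvd, Insig1, Tm7sf2, Srebf1, Srebf2, Stard4 and Dhcr7) and 1 was higher (Ggps1). Over all 12969 genes tested, 14.6% were lower and 15.4% higher at an adjusted p below 0.05 (limma on log2 CPM, Benjamini-Hochberg adjustment). The changes were small, from 1.35-fold lower for Mvd to 1.24-fold higher for Ggps1. In these bulk samples, fewer cells of a type and less RNA per cell cannot be told apart.

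The median log2 fold change was -0.054 over the 26 members and 0.0007 over all genes tested, and 17 of the 26 had a negative value, against 6473 of 12969. All 6 mimic libraries lay below all 5 controls for Mvd and Srebf2, and above them for Ggps1. Such separation was seen downward in 6.04% and upward in 8.89% of genes tested. Among the 18 tested members that were not called, the log2 fold change ran from -0.12 to 0.16. The count of 7 lower was not stable: it was 3 without control replicate 1, control replicate 2 or mimic replicate 6, 4 without control replicate 4 or 6 or mimic replicate 3 or 4, 9 without mimic replicate 1, and 2 (Mvd and Srebf1) without mimic replicates 3, 4 and 6 together. The share of all tested genes called lower was 11.3%, 11.1% and 10.8% in the first 3 of these fits, 11.7%, 11.0%, 11.2% and 11.3% in the next 4, 19.3% without mimic replicate 1 and 6.83% without the 3 mimic libraries.

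**Figure D1:**
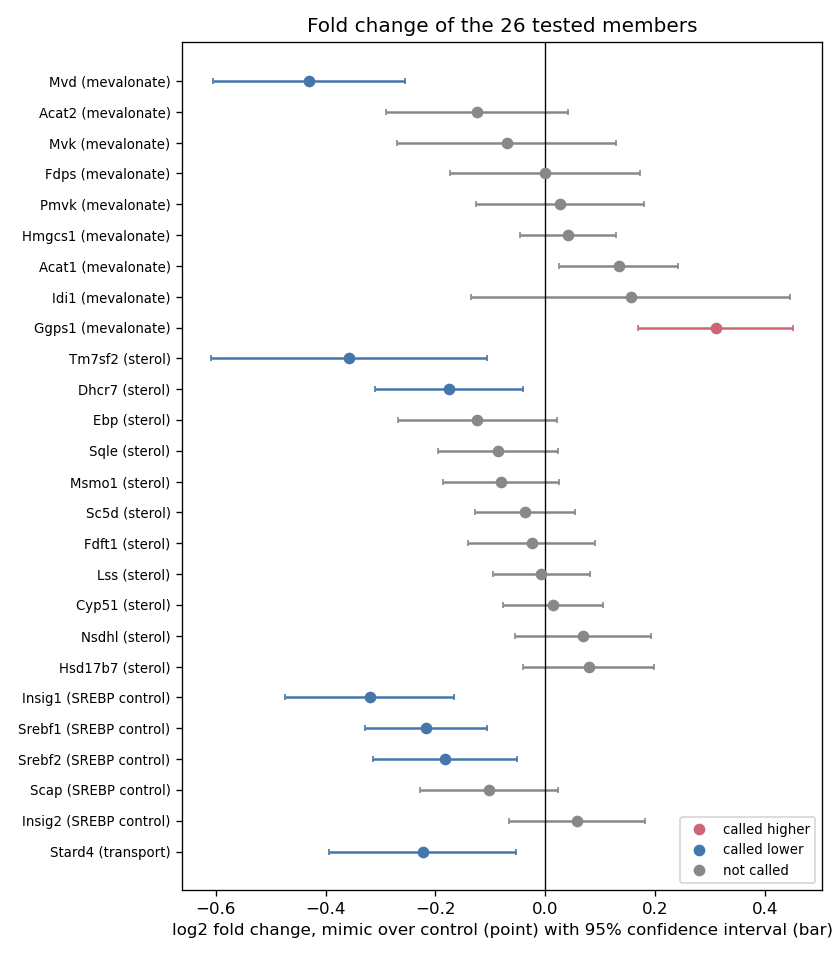
Log2 fold change (mimic minus control, x axis) of the 26 tested members, grouped by role on the y axis, with 95% confidence intervals from limma. Mvd at -0.43 lies farthest to the left and Ggps1 at 0.31 farthest to the right, and the 18 members that were not called lie between -0.12 and 0.16.

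Promoter sequence is shown for Insig1, Mvd and Ggps1, 3 members that passed the test, and for Hmgcs1, which did not pass. RefSeq promoters (GRCm38.p6) were matched for 22 of the 27 members and searched on both strands from 250 bases before to 50 after each start. The letters searched were the sterol regulatory element TCACNCCAC, the NF-Y box CCAAT, the E-box CACGTG, the GC box GGGCGG and the interferon-stimulated response element core TTCNNTTTC. Each stretch below is the 250 bases before the start, written along the gene's own strand, with capitals marking the sterol regulatory element and the NF-Y box (ATTGG is its reverse complement).
Insig1 (chr5:28071162-28071411, plus strand): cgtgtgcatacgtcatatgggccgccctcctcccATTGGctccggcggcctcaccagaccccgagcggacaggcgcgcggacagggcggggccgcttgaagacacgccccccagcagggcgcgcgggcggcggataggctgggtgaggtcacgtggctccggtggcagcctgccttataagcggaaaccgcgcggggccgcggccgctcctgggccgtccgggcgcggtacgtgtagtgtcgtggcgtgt
Mvd (chr8:122443423-122443672, minus strand): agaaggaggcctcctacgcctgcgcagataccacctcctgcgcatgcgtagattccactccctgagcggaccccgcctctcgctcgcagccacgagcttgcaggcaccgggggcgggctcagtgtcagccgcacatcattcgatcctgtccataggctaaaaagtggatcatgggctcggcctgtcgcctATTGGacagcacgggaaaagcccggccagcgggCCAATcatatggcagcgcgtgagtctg
Hmgcs1 (chr13:119690101-119690350, plus strand): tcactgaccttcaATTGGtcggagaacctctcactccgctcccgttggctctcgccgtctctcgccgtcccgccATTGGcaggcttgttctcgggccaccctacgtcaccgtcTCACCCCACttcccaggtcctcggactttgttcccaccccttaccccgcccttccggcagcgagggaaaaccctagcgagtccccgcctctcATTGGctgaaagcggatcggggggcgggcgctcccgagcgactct
Ggps1 (chr13:14063489-14063738, minus strand): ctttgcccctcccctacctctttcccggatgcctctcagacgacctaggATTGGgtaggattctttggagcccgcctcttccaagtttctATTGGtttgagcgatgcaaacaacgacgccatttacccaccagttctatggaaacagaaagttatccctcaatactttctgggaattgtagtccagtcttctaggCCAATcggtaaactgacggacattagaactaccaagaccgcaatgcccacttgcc

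An exact sterol regulatory element was present only in the Hmgcs1 promoter among the 22, at position -137, and in 1.44% of the 27025 genes with a promoter. The NF-Y box, bound by a trimeric factor that works beside SREBP, was held by 19 of the 22 members against 41.1% of genes. The 6 lower members with a promoter entry (Insig1, Mvd, Srebf1, Srebf2, Tm7sf2 and Dhcr7) and Ggps1 each had at least 1 NF-Y box. A gene was counted if any of its promoter entries held a match, and Dhcr7 and Srebf1 also had entries without an NF-Y box. Which start these cells use was not tested. GC boxes were held by 19 of the 22 (38.2% of genes) and E-boxes by 5 (8.09%). The interferon element core was found in 2, Ebp and Ggps1 (9.76% of genes), and not in the Ch25h window. These matches describe letters in the window and do not show that a factor binds there.

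Among the genes that control the pathway, 3 of 5 fell with the mimic, 0 rose, and their median change was -0.18. Over all genes tested, 14.6% were lower and 15.4% higher. Insig1 (ENSMUSG00000045294, chromosome 5, 28071363 to 28078662, GRCm38), which holds SREBP in the endoplasmic reticulum and is itself an SREBP target, had control values of 7.14, 7.13, 6.98, 7.02 and 6.96 log2 CPM. With the mimic its lowest, median and highest values were 6.55, 6.70 and 7.03. Mimic replicate 1 fell among the controls and the other 5 mimic libraries lay below them all. Its mean was 6.72 ± 0.178 (SD, n = 6) with the mimic, against 7.04 ± 0.082 (SD, n = 5) in controls, so it changed by -0.32 ± 0.072 on the log2 scale (SE; adjusted p = 0.00462 by limma), or 1.25-fold lower. Without mimic replicates 3, 4 and 6 together it was -0.19 (limma adjusted p = 0.0894). Leaving out any single library did not end the call.

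Srebf1 (ENSMUSG00000020538, chromosome 11, 60199089 to 60222581), which encodes the SREBP-1 forms that drive mainly fatty acid synthesis, stood at 6.00, 5.86, 6.07, 6.07 and 5.98 log2 CPM in controls. The mimic libraries had a lowest value of 5.68, a median of 5.79 and a highest of 5.93. Only mimic replicate 2 overlapped the controls, and it did so with control replicate 2 alone. The log2 fold change was -0.22 ± 0.053 (SE; adjusted p = 0.00669 by limma), 1.16-fold lower, and the call was kept in all 21 alternative settings. Exons of Rai1 overlap those of Srebf1 on the opposite strand. Because the strand setting of the counting is not known, their reads may not be separated. Rai1 had 236 to 286 reads in controls and 204 to 331 with the mimic, at a log2 fold change of -0.13 ± 0.078 (SE; adjusted p = 0.203 by limma). The part of Rai1 reads in the Srebf1 value was not tested.

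Srebf2 (ENSMUSG00000022463, chromosome 15, 82147181 to 82205379), which encodes SREBP-2, the main activator of the cholesterol synthesis genes, was tight in controls at 7.02, 7.08, 7.03, 7.04 and 7.09 log2 CPM. With the mimic the lowest, median and highest values were 6.67, 6.92 and 7.01. All 6 mimic libraries were below all controls, replicates 1 and 2 only just, while replicates 4 and 6 stood well below the rest. The log2 fold change was -0.18 ± 0.062 (SE; adjusted p = 0.0353 by limma). Without any one of the 5 control libraries, or without mimic replicate 4 or 6, the change was -0.19 to -0.14 and the limma adjusted p 0.0561 to 0.0803. Without mimic replicates 3, 4 and 6 together it was -0.09 (adjusted p = 0.128).

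Scap, whose protein escorts SREBP, was not called. Its control values were 5.45, 5.38, 5.57, 5.57 and 5.56 log2 CPM and its mimic values 5.27, 5.42 and 5.58 (lowest, median and highest). The groups overlapped, with a log2 fold change of -0.10 (95% interval -0.23 to 0.02; limma adjusted p = 0.198). Scap passed the threshold only without mimic replicate 1 (-0.14, adjusted p = 0.0496). Insig2, the second retention protein gene, had 4.16, 4.17, 4.23, 4.23 and 4.00 in controls and 4.13, 4.21 and 4.34 with the mimic. Mimic replicates 3, 4 and 6 lay above the controls and the others among them, at a log2 fold change of 0.06 (interval -0.07 to 0.18; limma adjusted p = 0.472).

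**Figure D2:**
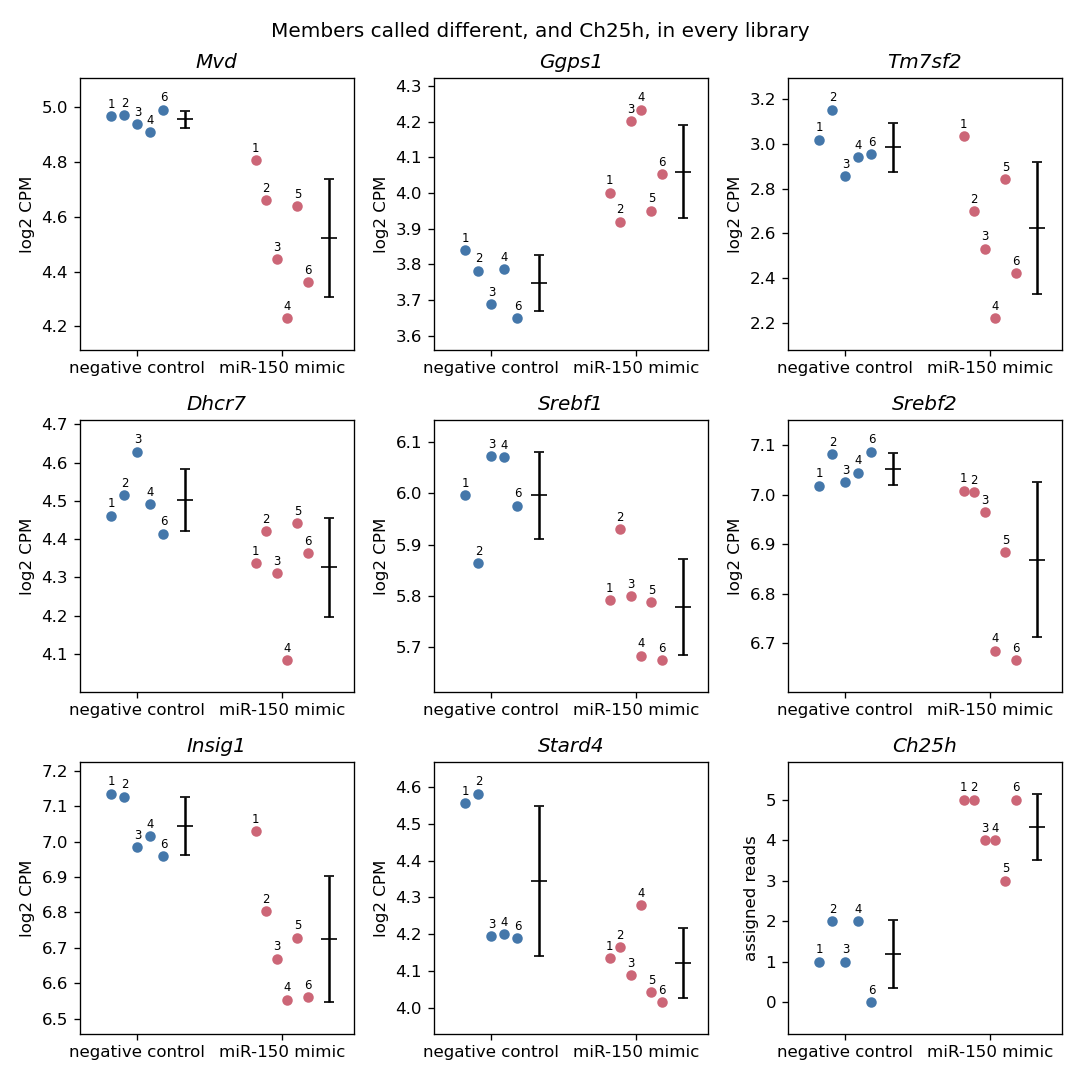
Log2 CPM of the 8 called members, and reads of Ch25h, in each library (y axis) for the control and mimic groups (x axis), with points numbered by replicate and the black mark giving mean ± SD. Mvd and Srebf2 have no mimic library within the control range, and in both mimic replicates 4 and 6 are the 2 lowest.

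Across the mevalonate and prenyl diphosphate genes 1 of 9 was lower and 1 was higher, near or under the shares over all genes tested (14.6% and 15.4%). The median was 0.027 log2 units. Mvd (ENSMUSG00000006517, chromosome 8, 122433601 to 122443422) encodes the decarboxylase that makes isopentenyl diphosphate. It had control values of 4.97, 4.97, 4.94, 4.91 and 4.99 log2 CPM. The mimic values were 4.23 at the lowest, 4.54 at the median and 4.81 at the highest. Controls sat close together, every mimic library was below them, and the mimic libraries themselves were spread widely. The mean went from 4.95 ± 0.032 (SD, n = 5) to 4.52 ± 0.215 (SD, n = 6), that is, by -0.43 ± 0.082 log2 units (SE; adjusted p = 0.0014 by limma). The call was kept in all 21 alternative settings, and without mimic replicates 3, 4 and 6 together the change was -0.25 (adjusted p = 0.00106).

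Ggps1 (ENSMUSG00000021302, chromosome 13, 14050659 to 14063488) encodes the synthase of geranylgeranyl diphosphate, a lipid attached to proteins to anchor them in membranes. It stood at 3.84, 3.78, 3.69, 3.79 and 3.65 log2 CPM in controls. The mimic libraries had 3.92, 4.03 and 4.23 (lowest, median and highest), all above every control. The log2 fold change was 0.31 ± 0.067 (SE; adjusted p = 0.00313 by limma), or 1.24-fold higher. It was again called in all 21 alternative settings, at 0.21 (adjusted p = 0.0349) without mimic replicates 3, 4 and 6 together. Exons of Arid4b overlap Ggps1 on the opposite strand, and 6.79% of the 50-base words of its longest transcript occur in other genes. Arid4b had 691 to 888 reads in controls and 732 to 1384 with the mimic, with a log2 fold change of 0.24 ± 0.096 (SE; adjusted p = 0.0681 by limma). The part of Arid4b reads in the Ggps1 value was not tested.

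Hmgcs1, the cytosolic HMG-CoA synthase gene and a classical SREBP target, was not called. Its control values were 7.20, 7.17, 7.05, 7.10 and 7.09 log2 CPM, and its mimic values 7.10, 7.17 and 7.25. All mimic libraries but replicate 1 lay within the control range, and the 95% interval of its log2 fold change, -0.05 to 0.13, excludes a fall of the size measured for Mvd. The thiolase gene Acat1 was at 0.13 ± 0.051 (limma adjusted p = 0.0574) and Acat2 at -0.12 (0.241). Acat1 passed the threshold when control replicate 2 was left out (0.17, adjusted p = 0.0271) or mimic replicate 5 was (0.15, adjusted p = 0.0443), and also with voom (0.13, adjusted p = 0.046). Acat2 shares 45.9% of its 50-base words with other genes, chiefly Acat3, and Idi1, the isomerase gene, shares 21.3%, so both values are uncertain. Idi1 was at 0.16 ± 0.137 (limma adjusted p = 0.41). The kinase genes Mvk and Pmvk were at -0.07 and 0.03, and Fdps, the farnesyl diphosphate synthase gene, at -0.001 (interval -0.17 to 0.17). None of these passed the test. Of the 50-base words of Fdps, 11.7% occur in other genes, chiefly Gm43738. Exons of Gm43738 also overlap Fdps on the same strand, so the Fdps value is uncertain too.

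On the route from squalene to cholesterol, 2 of 11 genes were lower and 0 higher. The 11 log2 fold changes ran from -0.36 to 0.079 around a median of -0.037. Both encode reductases. These counts stand against 14.6% lower and 15.4% higher over all genes tested. Tm7sf2 encodes a sterol reductase acting after lanosterol demethylation. Its control values were 3.02, 3.15, 2.85, 2.94 and 2.95 log2 CPM and its mimic values 2.22, 2.62 and 3.03. Mimic replicate 1 lay among the controls and the others below them, and the groups differed by -0.36 ± 0.119 on the log2 scale (SE; adjusted p = 0.0328 by limma). The call was lost without control replicate 1, 2, 4 or 6 or mimic replicate 3, 4 or 6 (-0.37 to -0.28; adjusted p 0.0554 to 0.0859), and the change was -0.12 (adjusted p = 0.419) without the 3 mimic libraries together. Exons of Vps51 overlap those of Tm7sf2 on the same strand, but 0% of the 50-base words of the longest Tm7sf2 transcript occur in other genes. Vps51 had 833 to 978 reads in controls and 888 to 1042 with the mimic. Scaled for library size, its log2 fold change was -0.13 ± 0.053 (SE; adjusted p = 0.0767 by limma). The part of Vps51 reads in the Tm7sf2 value was not tested.

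Dhcr7, whose enzyme carries out the last step to cholesterol in the Kandutsch-Russell branch, had 4.46, 4.52, 4.63, 4.49 and 4.41 log2 CPM in controls. Its mimic values were 4.08, 4.35 and 4.44. Replicate 4 stood far below the other mimic libraries, and replicates 2 and 5 lay within the control range. The log2 fold change was -0.18 ± 0.064 (SE; adjusted p = 0.0472 by limma). The call was lost without any one control library or without mimic replicate 3, 4 or 6 (-0.20 to -0.13; adjusted p 0.0510 to 0.127), and the change was -0.10 (adjusted p = 0.269) without the 3 mimic libraries together.

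Sqle encodes squalene epoxidase, a rate-setting enzyme of the route. It had 5.92, 5.93, 5.81, 5.77 and 5.85 log2 CPM in controls and 5.61, 5.77 and 5.88 with the mimic, overlapping for all but replicates 4, 5 and 6. Its log2 fold change was -0.09 (95% interval -0.20 to 0.02; limma adjusted p = 0.219). Cyp51, the lanosterol demethylase gene, had 6.35, 6.26, 6.21, 6.17 and 6.19 in controls and 6.20, 6.25 and 6.33 with the mimic. It overlapped in every library, at 0.01 (interval -0.08 to 0.11; limma adjusted p = 0.817). Exons of Akap9 overlap Cyp51 on the opposite strand, at 1565 to 1910 reads in controls and 1594 to 3169 with the mimic. Akap9 had a log2 fold change of 0.30 ± 0.110 (SE; adjusted p = 0.0509 by limma). The part of Akap9 reads in the Cyp51 value was not tested. The other 7 genes of the route were not called either. Ebp, the sterol isomerase gene, was at -0.12 and Msmo1, the methyl oxidase gene, at -0.08. Sc5d and Fdft1 (squalene synthase) were at -0.04 and -0.03, Lss (lanosterol synthase) at -0.01, Nsdhl at 0.07 and Hsd17b7 at 0.08. Ebp passed the threshold only in the weighted voom fit (-0.15, adjusted p = 0.0318) and without mimic replicate 1 (-0.18, adjusted p = 0.0179).

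Stard4, which encodes a soluble carrier moving cholesterol between membranes, was lower as well. Its control values were 4.56, 4.58, 4.20, 4.20 and 4.19 log2 CPM and its mimic values 4.02, 4.11 and 4.28. Control replicates 1 and 2 stood high, and the other 3 controls lay close above 5 of the mimic libraries and below mimic replicate 4. The log2 fold change was -0.22 ± 0.081 (SE; adjusted p = 0.0461 by limma). The call was lost without control replicate 1 or 2 or mimic replicate 2, 3, 5 or 6 (-0.23 to -0.16; adjusted p 0.0545 to 0.136), and the change was -0.23 (adjusted p = 0.135) without mimic replicates 3, 4 and 6 together.

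Ch25h (ENSMUSG00000050370, chromosome 19, 34473778 to 34475164) was close to the detection limit in every library and was not among the genes tested. The controls had 1, 2, 1, 2 and 0 reads, 6 in all, and the mimic libraries 5, 5, 4, 4, 3 and 5, 26 in all. Every mimic library had more reads than every control. Per scaled library total, the ratio was 3.17 (exact 95% interval 1.27 to 9.41, counting error only), from 0.0585 to 0.185 CPM. In a fit without the filter on low values the log2 fold change was 1.5 ± 0.52 (SE; adjusted p = 0.0448 by limma), where 5.11% of 31936 genes were called higher. This value depends on the 0.5 read added to each count before the logarithm. Gm26902, on the opposite strand, had 0 to 1 reads in controls and 0 to 2 with the mimic. The interferon-response list used for comparison, known from earlier results of these data to rise, had 22 of 22 members higher. Its median was 1.91 log2 units, and 15.4% of all genes tested were higher. The outcome was known when the list was chosen, so it lends no support to the Ch25h value.

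Levels per length set these changes in scale. On log2 CPM per kilobase of longest transcript, the control means were highest for Insig1 (5.61), Hmgcs1 (5.33), Ebp (5.24), Msmo1 (5.23) and Srebf2 (4.71). Idi1 (-0.87), Acat2 (1.24) and Tm7sf2 (1.36) were the lowest tested members, and Ch25h stood at -4.26. The levels of Idi1 and Acat2 are uncertain, as 21.3% and 45.9% of their 50-base words occur in other genes. Exons of Vps51 overlap those of Tm7sf2 on the same strand, so the level of Tm7sf2 may be uncertain too. However, 0% of the 50-base words of its longest transcript occur in other genes. Ebp and Msmo1 differed by less than the spread between control libraries, whereas Insig1 and Hmgcs1, or Msmo1 and Srebf2, lay farther apart than that spread. The spread between libraries does not cover the choice of the longest transcript as divisor, so the order of genes by level remains uncertain.

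In all, 5 pairs of members were compared within libraries as log2 ratios, using exact 2-sided permutation tests over the 462 arrangements of the libraries, adjusted over the 5 pairs (smallest possible p = 0.00216). The ratio of Insig1 to Insig2 went from 2.88 ± 0.105 (SD, n = 5) to 2.51 ± 0.252 (SD, n = 6), a difference of -0.38 (exact permutation p = 0.0173, adjusted 0.0216). In this ratio 5 of 6 mimic libraries were below every control. It joins the fall of Insig1 to Insig2, which was not called. The pairs were chosen with earlier results of these data known, and all 5 ratios reuse the values given above. Their p-values are therefore not separate support for those values. The ratio of Srebf1 to Srebf2 differed by -0.03 (exact permutation p = 0.567, adjusted 0.567), with overlapping groups.

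Ggps1 and Fdft1 lead from farnesyl diphosphate to protein prenylation and to sterols, respectively. Their ratio went from -0.996 ± 0.045 (SD, n = 5) to -0.66 ± 0.201 (SD, n = 6), a difference of 0.34 (exact permutation p = 0.00433, adjusted 0.0108), with 6 of 6 mimic libraries above every control. The ratio of the thiolase genes, Acat1 to Acat2, differed by 0.26 (exact permutation p = 0.0152, adjusted 0.0216; 5 of 6 mimic libraries above). The shared sequence of Acat2 limits that value, and likewise 10.9% of the 50-base words of Fdft1 occur in other genes. Exons of Ctsb also overlap Fdft1 on the opposite strand, and the strand setting of the counting is not known. Ctsb had 272692 to 342018 reads in controls and 312879 to 410107 with the mimic, far more than Fdft1. The part of Ctsb reads in the Fdft1 value was not tested. For Ch25h to Sqle the difference was 1.59 (exact permutation p = 0.00216, adjusted 0.0108; 6 of 6 above), and 0.92 with 2 reads added in place of 0.5. Without mimic replicates 3, 4 and 6 together, only 56 arrangements are left, and 1 ratio at their smallest p of 0.0179 is adjusted to 0.0893 over 5 pairs unless others are as small, so the test has little power. The 4 ratios called over all libraries kept their direction, at -0.17 for Insig1 to Insig2 (adjusted p = 0.156), 0.23 for Acat1 to Acat2 (0.119), 0.20 for Ggps1 to Fdft1 (0.0893) and 1.62 for Ch25h to Sqle (0.0893; exact permutation tests).

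**Figure D3:**
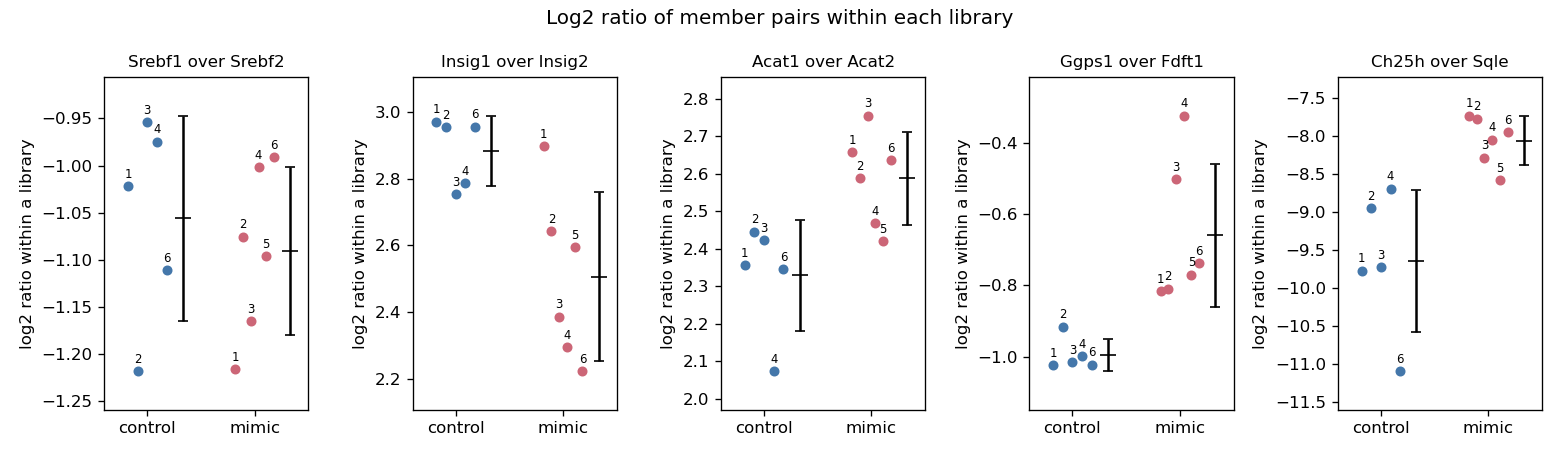
Log2 ratio of 2 members within each library (y axis, 1 panel per pair) for control and mimic libraries (x axis), with mean ± SD. Srebf1 over Srebf2 overlaps fully, while Ggps1 over Fdft1 and Ch25h over Sqle have every mimic library above every control.

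The mimic libraries did not move by the same amount. Averaged over the 7 lower members, the deviation from the control mean was -0.10 in mimic replicate 1, -0.17 in replicate 2, -0.29 in replicate 3, -0.45 in replicate 4, -0.22 in replicate 5 and -0.40 in replicate 6. This is a description, since the 7 were called on these libraries. Mimic replicate 4 held the lowest of the 11 values for 11 of the 26 tested members, and mimic replicate 1 the highest for 7. The 3 libraries that deviated most are those whose expression rose most with transcript length. After correction of each library for transcript length all 8 calls were made again, in a fit that called 31.3% of genes in either direction, with Mvd at -0.37 (limma adjusted p = 0.00023), Insig1 at -0.31 (0.00248), Srebf1 at -0.25 (0.00171) and Ggps1 at 0.28 (0.00241). Pmvk, the phosphomevalonate kinase gene, was then called higher as well (0.16, adjusted p = 0.0431). The median longest transcript was 3083 nucleotides for the 7 lower members and 3247 for all genes tested.

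**Figure D4:**
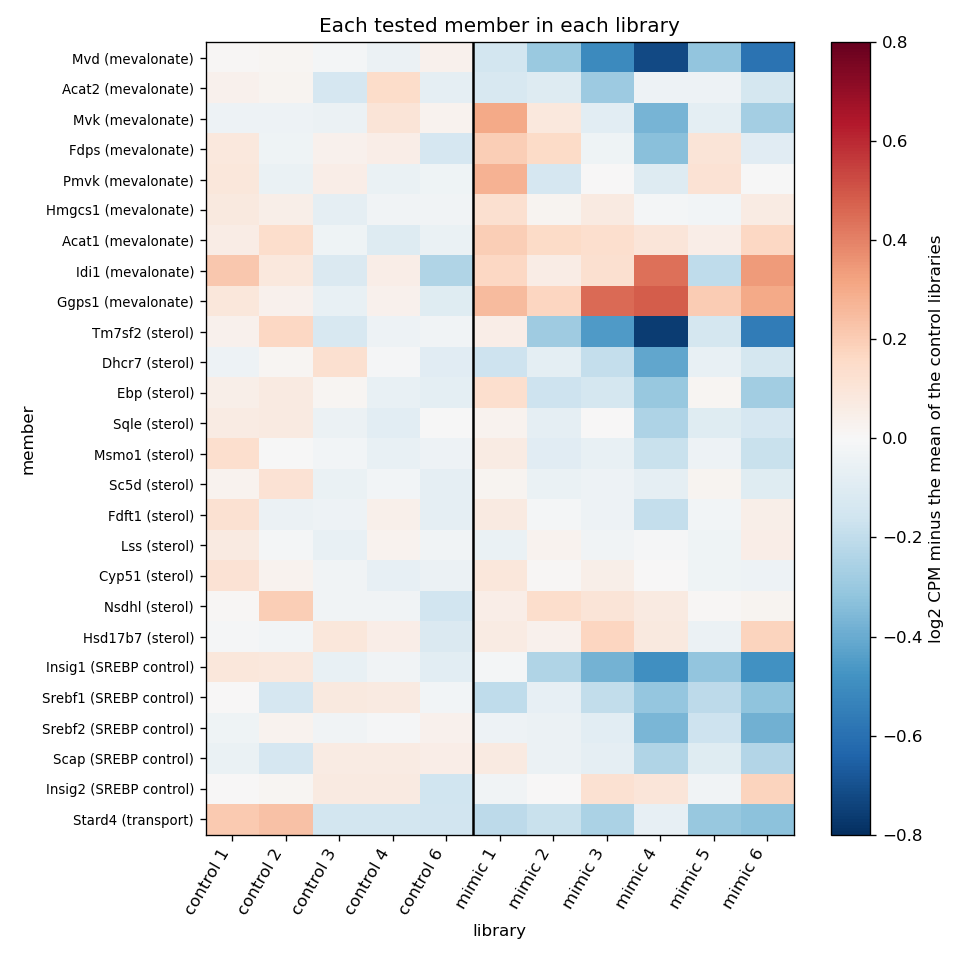
Deviation of each tested member from its control mean in log2 CPM (colour, limited to 0.8 either way) by library (columns) and member (rows). Blue or red runs along a row show the group difference, and mimic replicates 4 and 6 hold the strongest values for Mvd, Tm7sf2, Srebf2 and Insig1.

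Other genes of the SREBP pathway gave a mixed picture: 22 of the 23 listed were tested, and 3 of them rose while 5 fell, against 15.4% and 14.6% of all genes tested. Their median was -0.018. Lpin1 and Fasn, lipid synthesis genes under SREBP-1, were lower by -0.27 ± 0.050 and -0.26 ± 0.058 (limma adjusted p = 0.00089 and 0.00414). Acss2, an acetyl-CoA synthetase gene, was higher by 0.33 ± 0.072 and Rnf139, a ubiquitin ligase gene of the endoplasmic reticulum, by 0.16 ± 0.042 (limma adjusted p = 0.0034 and 0.01). The list had 2 higher and 2 lower without mimic replicates 3, 4 and 6 together, and also when control replicate 4 or 6 was left out (9.36%, 11.9% and 11.5% of all genes higher and 6.83%, 11.7% and 11.0% lower in these 3 fits).

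In the list of oxysterol metabolism and sensing, 15 of 17 were tested, of which 0 rose and 3 fell (15.4% and 14.6% over all genes tested). The median was -0.036. Hsd3b7, a bile acid synthesis gene, was at -0.16, Sult2b1, an oxysterol sulfotransferase gene, at -0.57, and Nr1h2, which encodes liver X receptor beta, at -0.16 (limma adjusted p = 0.0123, 0.0268 and 0.0325). The lower count was 1 without control replicate 2 or 6 or mimic replicate 3 or 4. It was 4, with 2 higher, without mimic replicate 1, and likewise with voom, fits that called 20.8% and 22.9% of all genes higher and 19.3% and 20.5% lower. In the list of isoprenoid enzymes and prenylation, which follows on from Ggps1, 16 of 17 were tested, 0 were higher and 1 lower. That gene was Rce1, the protease acting on prenylated proteins, at -0.26 ± 0.075 (limma adjusted p = 0.0165). Without mimic replicate 1 the list had 4 higher and 2 lower, where 20.8% of all genes were called higher and 19.3% lower. With mimic replicates 3, 4 and 6 left out together the list had 0 higher and 0 lower, so the Rce1 call was lost. That fit called 9.36% of all genes higher and 6.83% lower.

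In the authors' deposited table, 6 of the 27 members have an adjusted p below 0.05, against 4.69% of all genes called higher and 4.51% called lower there. Those shares are over all 31936 genes, of which 12969 pass the filter on low values used here, whereas 26 of the 27 members pass it. The shares and the member count therefore do not have a like base. The authors' deposited table gives Ggps1 (adjusted p = 0.0115) and Ch25h (0.0429) as higher, and Mvd (0.00125), Insig1 (0.00223), Srebf1 (0.0104) and Srebf2 (0.0449) as lower. Tm7sf2, Stard4 and Dhcr7 have adjusted p-values of 0.063, 0.107 and 0.131 in the authors' deposited table.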

How the data were processed

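RNA from 5 negative control and 6 microRNA-150 libraries was sequenced, with groups and replicate numbers taken from the sample titles. STAR, Subread, featureCounts and edgeR were used, per the submitters' processing notes, while neither the genome build nor how strand was handled is given in the sources used here. The authors deposited log2 CPM values. A value equals a whole read number plus 0.5 over a scaled library total, in log2, and the read numbers were recovered within 0.01 read throughout. The authors' deposited table also gives p-values, adjusted p-values and log2 fold changes, made with a test that no label or header names.

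Linear models with a group term were fitted to the log2 CPM with limma 3.58.1 (trend and robust settings, statmod 1.5.0, R 4.3.3). The fit took the 12969 genes reaching a log2 CPM of -1 in 5 or more libraries, p-values were adjusted over all of them (Benjamini-Hochberg), and calls required an adjusted p below 0.05. The fit was tested on simulated data that had the same dispersion for every gene and no trend with transcript length. That simulation does not show how the fit behaves where libraries differ in such a trend. Ratios of member pairs used exact permutation tests. Python 3.11.15 with pandas 2.3.3, numpy 2.4.6, scipy 1.17.1 and matplotlib 3.10.9 was used for tables and figures. Gene coordinates, transcript lengths and exon overlaps are from GENCODE M21 (GRCm38), which may not be the annotation the authors used.

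The members, context lists, pairs and tests were chosen with earlier results of these data known. Full values are given for each called member and for Srebf1, Srebf2, Scap, Insig1, Insig2, Hmgcs1, Sqle, Cyp51, Ggps1, Stard4 and Ch25h, and up to 4 called genes of each context list are named by smallest p. Other members described beyond their fold change were chosen after their values were seen, and some genes of the context lists are not reported here by name. Alternatives covered scaling, filter, pseudocount, voom with sample weights, plain empirical Bayes, the replicate block, transcript length (lowess, span 0.3), each library left out in turn, and mimic replicates 3, 4 and 6 left out together. Replicate libraries differed beyond sampling noise in all 25 within-group pairs (chi-square per degree of freedom 2.60 to 44.2), and each was counted as its own replicate. The sequence of miR-150-5p was not used here.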

Additional observations from a re-analysis of the deposited data

Results flagged for a closer look

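Dhcr7 in mimic replicate 4 stood apart from the other 5 mimic libraries, at 4.08 log2 CPM. The gap to the next lowest library was 0.634 of the whole range of the group. Of 54 groups of values checked in this way (2 groups for each of 27 members), 1 had such a distant library, and chance flags about 1 in 20. Without that library Dhcr7 was at -0.13 (limma adjusted p = 0.0916) and was not called.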

How the results depend on the processing

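Mvd, Ggps1 and Srebf1 were called in all 21 alternatives, and no member's log2 fold change that was called changed sign. The members called lower numbered 3 under plain empirical Bayes (12.4% of all genes lower), 2 without mimic replicates 3, 4 and 6 together, and 3 to 9 over the fits that left out 1 library. Members called higher numbered 2 without the filter on low values (Ch25h and Ggps1), with voom and with the length correction, and 1 to 2 over the fits that left out 1 library. Of all genes, 5.11% were called higher without the filter, 22.9% with voom and 16.4% with the length correction. The other scalings moved the median of all genes to -0.0087 and -0.0037 and ended no call of a member. With exact tests, the pair ratios without the 3 mimic libraries were -0.17, 0.23, 0.20 and 1.62, as given above.

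Libraries with the same replicate number did not deviate together (correlations from -0.061 to 0.062; replicate 4 alone correlated best with its own number). No pairing by number was seen. This check cannot exclude a shared animal or batch, since other differences between libraries may hide it and the labels do not give either. With the replicate block, 5 members were lower and 1 higher (13.8% and 13.7% of all genes), and 6 of the 8 calls were made again. Srebf2 (-0.19, limma adjusted p = 0.0541) and Stard4 (-0.21, 0.0688) missed the threshold. Over the 5 replicate pairs an exact sign-flip test cannot go below p = 0.0625. In it the ratios differed by -0.40 for Insig1 to Insig2, 0.29 for Acat1 to Acat2, 0.36 for Ggps1 to Fdft1 and 1.69 for Ch25h to Sqle (exact permutation, each adjusted p = 0.0781). Depth limits Ch25h, with at most 5 reads in a library, where single reads move the ratio. Causes of the changes between settings were not tested.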
